A study of Homo sapiens with 12 samples.

Results

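The genes that encode the ligands of the epidermal growth factor receptor (EGFR) were followed in 3 lines of head and neck squamous cell carcinoma (HNSCC) that received the EGFR antibody cetuximab. These genes are AREG, EREG, TGFA, HBEGF, EPGN, BTC and EGF, which were chosen by name and make up 7 of the 33514 gene symbols in the count tables. Single-cell RNA sequencing (scRNA-seq) with 3′ chemistry had counted unique molecular identifiers (UMIs), which stand for single captured transcripts, in the lines SCC1, SCC6 and SCC25. Cells of every line were grown in medium with serum and were given cetuximab at 100 nM each day over 5 days, or phosphate-buffered saline (PBS) on the same schedule as the untreated control. Each of the 6 groups had 2 samples, so that there were 12 samples in all. The comparison asked how the transcripts of tumour cells differ after a short exposure to the antibody, in each line and over the 3 lines. As a model, a cell line holds tumour cells without the stroma and immune cells of a tumour. Whether the 2 samples of a group came from separate cultures is not clear from the sources used here, and if they did not, the p-values measure only the spread between libraries.

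EGFR ligands are made as precursors that span the cell membrane, and proteases of the ADAM family, mainly ADAM17 and ADAM10, cut them to release the mature growth factor. The ligand then binds EGFR on the same cell or a neighbour, the receptor pairs with another receptor of the ERBB family, and the RAS-RAF-ERK cascade carries the signal to the nucleus, where ligand genes such as AREG, EREG and HBEGF are among those it can switch on. Cetuximab binds the outer part of EGFR and keeps ligands from it. EGF, TGFA, BTC and HBEGF bind the receptor tightly, whereas AREG, EREG and EPGN bind it weakly. HBEGF, BTC and EREG can also bind ERBB4.

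All 7 genes matched the RefSeq gene table of GRCh38.p14. EPGN (chr4:74308470-74316789), EREG (chr4:74365145-74388749), AREG (chr4:74445136-74455005) and BTC (chr4:74744759-74794523, on the minus strand) lie side by side, and these 4 are the only protein-coding genes in the 486054 bases from EPGN to BTC. EREG ends 56386 bases before AREG starts. EGF lies elsewhere on the same chromosome (chr4:109912883-110013766), TGFA on chromosome 2 (chr2:70447284-70553826, minus strand) and HBEGF on chromosome 5 (chr5:140332843-140346603, minus strand). An older annotation gave AREG a near-identical copy, AREGB. The count tables had 1 symbol, AREG, and how reads shared by such copies were counted is not given in the sources used here.

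AREG, EREG and HBEGF are the ligand genes whose fall in SCC6 passed the test described below, and the 250 bases before their annotated starts are therefore shown, 5′ to 3′ on the strand of the gene, from RefSeq (GRCh38.p14). Capitals mark matches, on either strand, to the letters TGACGTCA (a cyclic AMP response element, CRE), TATAAA (the TATA box), GGGCGG (an SP1 site), GGAATG (a TEAD site) and TGAGTCA (an AP-1 site). The windows are chr4:74444886-74445135 for AREG, chr4:74364895-74365144 for EREG and chr5:140346604-140346853 (minus strand) for HBEGF.
AREG: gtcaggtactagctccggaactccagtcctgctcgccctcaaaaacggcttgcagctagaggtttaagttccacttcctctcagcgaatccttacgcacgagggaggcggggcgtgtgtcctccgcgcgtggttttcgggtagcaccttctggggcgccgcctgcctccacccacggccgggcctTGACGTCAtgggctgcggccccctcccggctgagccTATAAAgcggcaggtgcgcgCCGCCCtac
EREG: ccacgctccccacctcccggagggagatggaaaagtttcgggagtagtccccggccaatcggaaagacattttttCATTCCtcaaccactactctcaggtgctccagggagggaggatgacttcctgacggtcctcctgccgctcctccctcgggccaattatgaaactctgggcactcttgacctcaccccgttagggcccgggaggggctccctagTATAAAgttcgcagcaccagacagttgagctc
HBEGF: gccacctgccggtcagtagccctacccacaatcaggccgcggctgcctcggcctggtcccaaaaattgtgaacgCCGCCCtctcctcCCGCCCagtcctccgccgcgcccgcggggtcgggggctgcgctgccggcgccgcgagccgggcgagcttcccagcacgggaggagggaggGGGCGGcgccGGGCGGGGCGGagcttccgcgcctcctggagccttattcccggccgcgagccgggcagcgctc
The AREG window held the CRE letters from 65 to 58 bases before the start, the TATA letters from 29 to 24 bases and 1 SP1 match. CRE letters were found in 1.65% and TATA letters in 10.7% of all 35116 windows of this kind. In the EREG window the TATA letters stood from 32 to 27 bases before the start and a TEAD match (11.9% of windows) from 175 to 170 bases. HBEGF had 5 SP1 matches, of which a pair shares 1 base, and SP1 letters were in 42.6% of windows. TATA letters were also in the EPGN window, SP1 letters in 1 of the 2 TGFA windows (the other held no match), and AP-1 letters (4.2% of windows) overlapping a TEAD match in that of EGF. BTC had none of these. The matches describe the letters only, and transcript counts do not show which start was used.

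The samples held 961 to 2854 cells and 57057402 to 112170073 UMIs, with a median of 24078.5 to 54864 UMIs per cell. All 8 squamous epithelial markers exceeded a counts-per-million (CPM) value of 1 in at least 1 sample, whereas none of 4 endothelial markers did. Fibroblast markers (6 of 7 above 1 CPM in a sample) summed to between 0.947 and 80.3 CPM, and of 5 immune markers only CD68 and CD79A exceeded 1 CPM. Pairs of samples had few cell barcodes in common, 3 to 10 within a group and 1 to 13 between groups. CPM here are UMIs divided by the total of the sample, with no division by length because 3′ counting takes 1 tag per transcript, so that levels of different genes can be set side by side only as captured transcripts. Log2 fold changes are from the quasi-likelihood test of edgeR on UMIs summed per sample, with TMM scaling, and FDR is the Benjamini-Hochberg adjusted p over the 17897 genes that passed a filter on low counts. All 7 ligand genes passed it. The false discovery rate of 0.05 was the threshold.

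AREG was the most abundant ligand transcript in the 3 untreated lines. It stood at 279 and 230 CPM in the PBS replicates of SCC1, at 515 and 115 CPM in SCC6 and at 61.0 and 29.6 CPM in SCC25. Both SCC25 values were below all values of the other untreated lines, and the 2 SCC6 values lay on either side of those of SCC1. AREG made up 87.5% to 88.0% of all ligand UMIs in untreated SCC1, 48.5% to 61.7% in SCC6 and 53.9% to 63.5% in SCC25. Between untreated lines 40.2% of the 17897 genes passed the test for SCC6 against SCC1 (21.5% higher and 18.6% lower in SCC6), 40.8% for SCC25 against SCC1 (23.4% higher and 17.3% lower in SCC25) and 40.9% for SCC25 against SCC6 (22.2% higher and 18.7% lower in SCC25). Of the 7 ligand genes 2, 4 and 5 passed in these comparisons. AREG was lower in SCC25 than in SCC1 (log2 fold change −2.31 ± 0.67, edgeR FDR 0.0244) and SCC6 (−2.99 ± 0.67, FDR 0.00815), and the difference between SCC6 and SCC1 (0.68 ± 0.67) did not pass the test. Without PBS replicate 1 of SCC6 the last of these was −0.86, and the comparison of SCC25 with SCC6 left 2 calls in place of 5, EGF and EREG, as it also did without PBS replicate 2 of SCC25. Of the 4 calls for SCC25 against SCC1, only EGF remained without PBS replicate 1 of SCC1, EGF and AREG without PBS replicate 1 of SCC25, and EGF and BTC without PBS replicate 2 of either line.

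EREG, which encodes epiregulin, had its highest level in SCC6. It had 185 and 93.9 CPM in untreated SCC6, against 9.15 and 10.6 CPM in SCC1 and 3.55 and 2.17 CPM in SCC25. The mean was 14.1 times that of SCC1 and 48.8 times that of SCC25, with no overlap between any 2 lines. The log2 differences were 4.16 ± 0.52 for SCC6 against SCC1 (edgeR FDR 0.000351), −5.78 ± 0.52 for SCC25 against SCC6 (FDR 8.2e-05) and −1.62 ± 0.53 for SCC25 against SCC1 (FDR 0.0345). In the order of levels SCC6 therefore stood first and SCC25 last.

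HBEGF, the heparin-binding ligand, had 122 and 20.9 CPM in untreated SCC6, 11.9 and 9.23 CPM in SCC1 and 20.1 and 16.2 CPM in SCC25. SCC6 was above SCC1 (log2 difference 3.14 ± 0.70, edgeR FDR 0.00822) and SCC25 (SCC25 minus SCC6 −2.16 ± 0.70, FDR 0.0372), whereas SCC25 and SCC1 did not pass the test (0.98 ± 0.70, FDR 0.301). Whichever sample was left out, SCC6 stayed above SCC1 (log2 difference 1.28 to 3.93), and SCC25 minus SCC6 stayed negative (−2.95 to −0.31). The size of these differences rested largely on PBS replicate 1 of SCC6. Without it, the call against SCC1 was lost, and it was also lost without PBS replicate 2 of SCC1.

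TGFA, which encodes transforming growth factor alpha, was close in level in the 3 lines, with 13.6 and 10.2 CPM in untreated SCC1, 11.02 and 5.45 CPM in SCC6 and 9.59 and 5.14 CPM in SCC25. The groups overlapped in the pairs SCC1 and SCC6, and SCC6 and SCC25, and no log2 difference between lines, from −0.51 ± 0.49 to −0.17 ± 0.49, passed the test (lowest edgeR FDR 0.441).

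The other 3 ligand genes were rare. BTC (betacellulin) had 3.44 and 2.66 CPM in untreated SCC1, 2.19 and 1.60 CPM in SCC6 and 0.902 and 1.01 CPM in SCC25. It was lower in SCC25 than in SCC1 (log2 difference −1.47 ± 0.36, edgeR FDR 0.00947) and SCC6 (−1.13 ± 0.36, FDR 0.0305), and SCC6 and SCC1 did not pass the test. EGF itself was nearly absent from 2 of the lines. Untreated SCC25 held 59 and 50 EGF UMIs in its 2 samples, untreated SCC6 2 in each, and untreated SCC1 1 and 0. The ratio of SCC25 to SCC1, scaled to total UMIs, was 87.2 with a 95% counting interval from 15.3 to 3474, and that of SCC25 to SCC6 was 28.7 (10.9 to 107), and both differences passed the test (edgeR FDR 0.000473 and 0.00092). EPGN (epigen) stayed below 0.4 CPM in all 12 samples, and no difference between lines passed (FDR 0.0515 for SCC25 against SCC6).

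**Figure D1:**
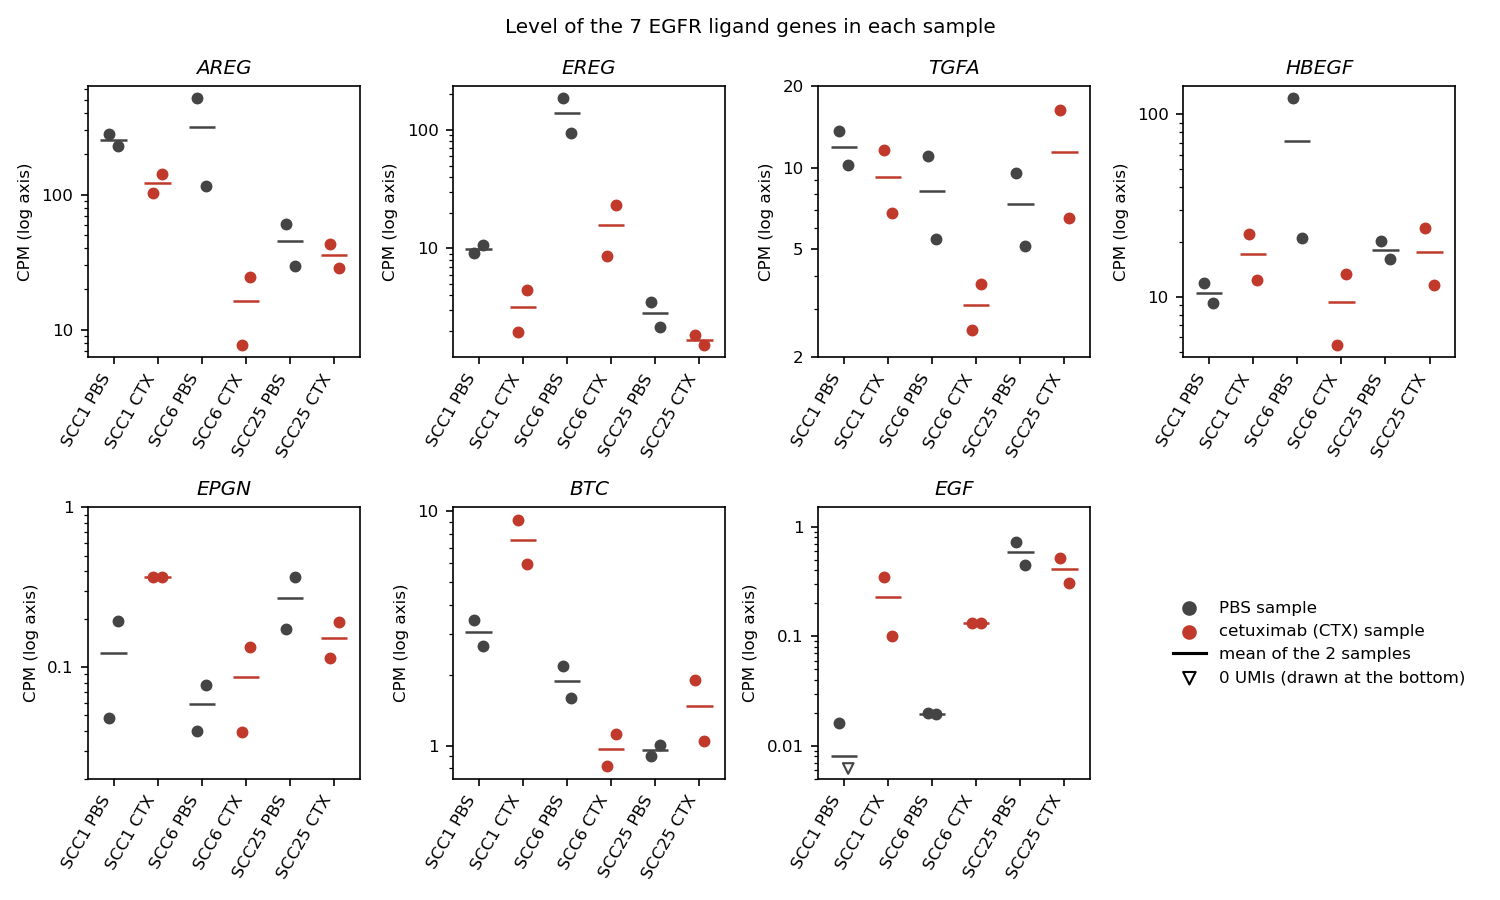
Level of each ligand gene in CPM (log axis, with its own range in each panel) in the 2 samples of each group, with lines at the group mean. EREG separated untreated SCC6, at 185 and 93.9 CPM, from all other groups, and in SCC6 the cetuximab (CTX) samples of AREG, EREG, TGFA, HBEGF and BTC lay below both PBS samples.

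In SCC6 the 3 most abundant ligand transcripts were lower with cetuximab. AREG fell from 515 and 115 CPM in the PBS replicates to 7.74 and 24.7 CPM in the cetuximab replicates, a 19.4-fold lower mean (log2 fold change −4.53 ± 0.68, edgeR FDR 0.0162). Folds of means are taken from CPM and log2 fold changes from the fit with TMM scaling, so that they need not match. EREG fell from 185 and 93.9 CPM to 8.62 and 23.0 CPM, an 8.81-fold lower mean (−3.38 ± 0.52, FDR 0.0144). For HBEGF the values were 122 and 20.9 CPM in PBS and 5.46 and 13.3 CPM in cetuximab, a 7.63-fold lower mean (−3.19 ± 0.70, FDR 0.0481), which did not pass with the replicate number as a block (FDR 0.0516). These 3 of 7 ligand genes passed the test in SCC6, all downwards, while 3.81% of the 17897 genes tested passed in either direction and 1.3% passed downwards. The lowest PBS sample was above the highest cetuximab sample for each of the 3 genes. Summed over the 7 ligand genes, the level was 836 and 237 CPM in PBS and 25.3 and 66.2 CPM in cetuximab in SCC6, 317 and 263 CPM against 149 and 171 CPM in SCC1, and 96.1 and 54.9 CPM against 87.6 and 49.8 CPM in SCC25.

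Replicate 1 carried the larger part of these changes in SCC6. Between the samples numbered 1, AREG differed 66.6-fold, EREG 21.4-fold and HBEGF 22.4-fold, and between those numbered 2 the values were 4.64-fold, 4.08-fold and 1.57-fold. PBS replicate 1 was the higher of the untreated samples and cetuximab replicate 1 the lower of the treated samples for all 3 genes. Without PBS replicate 1 none of the 7 genes passed (AREG −2.999, EREG −2.75 and HBEGF −1.34 on the log2 scale, edgeR FDR 0.104, 0.113 and 0.383), and without cetuximab replicate 1 none passed either (−3.92, −2.83 and −2.68, FDR 0.119, 0.101 and 0.324). The direction was downward for these 3 genes whichever sample was left out. HBEGF also lost its call without cetuximab replicate 2 of SCC6, any sample of SCC1 or either PBS replicate of SCC25 (FDR 0.0587 to 0.0866). When only the 4 samples of SCC6 were fitted, EREG passed (FDR 0.0403), and AREG (0.0555) and HBEGF (0.12) did not.

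TGFA had 11.02 and 5.45 CPM in the PBS replicates of SCC6 and 2.51 and 3.71 CPM in the cetuximab replicates (log2 fold change −1.65 ± 0.50, edgeR FDR 0.106). BTC had 2.19 and 1.60 CPM in PBS and 0.816 and 1.12 CPM in cetuximab (−1.20 ± 0.36, FDR 0.103). EGF had 2 UMIs in each PBS sample and 10 and 12 in the cetuximab samples, a ratio of 6.73 with a counting interval from 2.29 to 26.9 (FDR 0.135). The groups did not overlap for any of these 3 genes, a separation that 11.6% of all genes showed downwards and 37.4% upwards in SCC6. With the replicate number within each line as a block, TGFA (−1.56 ± 0.34, FDR 0.0202), BTC (−1.18 ± 0.33, FDR 0.0413) and EGF (2.45 ± 0.70, FDR 0.026) passed in SCC6 in addition to AREG (FDR 0.0124) and EREG (FDR 0.00518), while HBEGF (−2.77 ± 0.69) did not. That fit called 5 of the 7 genes, beside 20.1% of all genes tested. In SCC6 the samples with the same number did not deviate together in these genes: replicate 1 minus replicate 2 was 2.26 in PBS and −1.70 in cetuximab for AREG on the log2 scale, 1.11 and −0.58 for TGFA and 0.55 and −0.47 for BTC. DESeq2 also called 5 of the 7 (AREG, BTC, EREG, HBEGF and TGFA), beside 9.28% of all genes. EPGN, with 4 and 8 UMIs in PBS and 3 and 12 in cetuximab, gave no call in either fit.

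Some values other than the ligands moved with treatment in SCC6. The summed fibroblast marker level was 0.947 and 2.98 CPM in PBS and 23.1 and 27.9 CPM in cetuximab. Of these markers COL1A1 (3.45 on the log2 scale, edgeR FDR 0.00631), PDGFRB (4.67, FDR 0.0144) and COL3A1 (4.44, FDR 0.0214) rose, and COL1A2, DCN, LUM and PDGFRA did not pass. CD68 fell (−2.55, FDR 0.0202). The 8 squamous markers summed to 1004 and 1105 CPM in PBS and to 2414 and 3154 CPM in cetuximab, of which KRT17, a keratin, made up 770 and 440 CPM in PBS and 2006 and 2449 CPM in cetuximab (1.64, edgeR FDR 0.0463). KRT6A, another keratin, fell (−2.60, FDR 0.00373), and the other 6 did not pass. PTPRC and CD3E, which mark white blood cells, were at 0 UMIs in untreated SCC6. Cetuximab replicate 1 had the fewest UMIs per cell of all samples, with a median of 24078.5. Scaled by total UMIs, the median of all genes was shifted by 0.10 (log2) in SCC6, and by TMM by 0.00. At 15000 UMIs in each cell, AREG was detected in 6.87% of its cells. The part of these values in the ligand changes was not tested.

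In SCC1 none of the 7 ligand genes passed the edgeR test, where 0.0168% of all genes did, and none passed in DESeq2, where 1.51% did. AREG had 279 and 230 CPM in PBS and 103 and 141 CPM in cetuximab (log2 fold change −1.10 ± 0.67, FDR 0.746). EREG had 9.15 and 10.6 CPM in PBS and 1.96 and 4.42 CPM in cetuximab (−1.67 ± 0.53, FDR 0.376). BTC had 3.44 and 2.66 CPM in PBS and 9.20 and 5.96 CPM in cetuximab (1.27 ± 0.35, FDR 0.283), and HBEGF 11.9 and 9.23 CPM in PBS and 22.2 and 12.3 CPM in cetuximab (0.66 ± 0.71, FDR 0.919). EGF went from 1 and 0 UMIs to 20 and 8 UMIs, a ratio of 31.8 with a counting interval from 5.26 to 1301. It did not pass in the fit without a block (FDR 0.192) and passed with the block (FDR 0.0167), which called 4.45% of all genes in SCC1. In SCC1 both cetuximab samples were outside both PBS samples for 6 of the 7 genes, downwards for AREG and EREG and upwards for HBEGF, EPGN, BTC and EGF, where 42% of all genes tested showed such a separation.

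In SCC25 no ligand gene passed the edgeR test, none had an unadjusted p under 0.05 and none passed by DESeq2, while 0% of all genes passed in edgeR and 0.564% in DESeq2. AREG had 61.0 and 29.6 CPM in PBS and 43.2 and 28.6 CPM in cetuximab (log2 fold change −0.35 ± 0.67), and HBEGF 20.1 and 16.2 CPM in PBS and 23.7 and 11.6 CPM in cetuximab (−0.07 ± 0.70). TGFA had 9.59 and 5.14 CPM in PBS and 16.3 and 6.50 CPM in cetuximab (0.61 ± 0.49). EPGN had 14 and 41 UMIs in PBS and 10 and 20 UMIs in cetuximab (−0.87 ± 0.69), and EGF 59 and 50 UMIs in PBS and 46 and 32 UMIs in cetuximab (−0.52 ± 0.55). For these 5 genes the groups overlapped in CPM. EREG, with 3.55 and 2.17 CPM in PBS and 1.84 and 1.53 CPM in cetuximab (−0.78 ± 0.54, FDR 0.969), was separated downwards, and BTC, with 0.902 and 1.01 CPM in PBS and 1.91 and 1.05 CPM in cetuximab (0.59 ± 0.36, FDR 0.943), upwards. Separation of the groups was found for 29.2% of all genes in SCC25 and for 49% in SCC6, where it held for 6 of the 7 ligand genes, 5 of them downwards and EGF upwards.

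**Figure D2:**
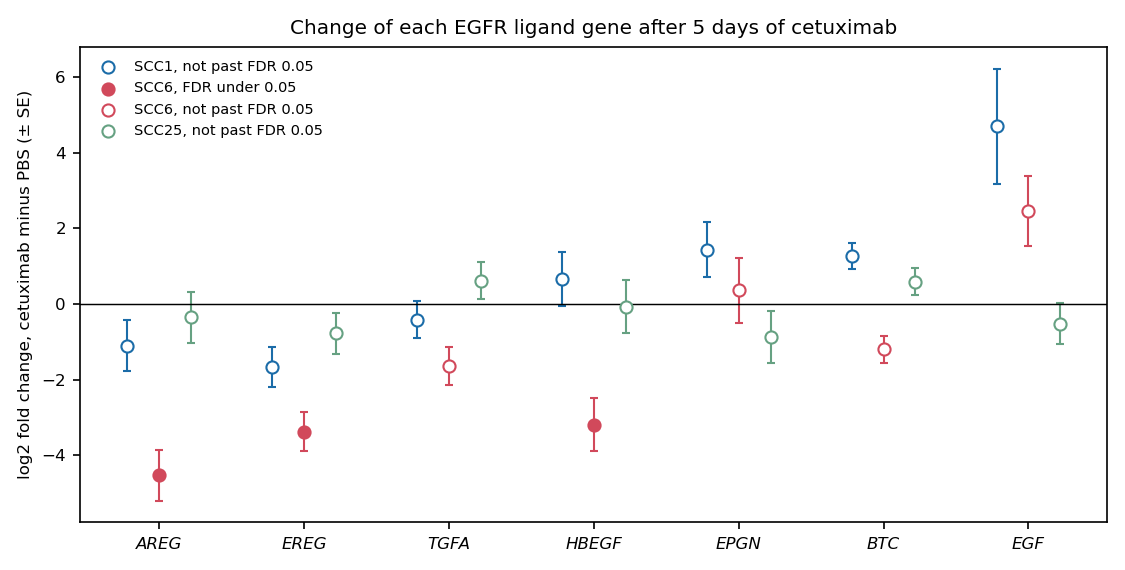
Log2 fold change of each ligand gene, cetuximab minus PBS, in each line, with bars for ± SE of the edgeR fit over 2 samples per group. Filled points, the AREG (−4.53), EREG (−3.38) and HBEGF (−3.19) values of SCC6, passed a false discovery rate of 0.05.

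EREG and AREG had a lower mean with cetuximab in each line. For AREG this was weak in SCC25, where the groups overlapped and the log2 change lay between −0.74 and 0.19 with a sample left out. The share of all genes that were lower in every pair was not set beside the following. In all 6 pairs of samples with the same number the level was lower with cetuximab, for EREG from 21.4-fold in SCC6 replicate 1 to 1.42-fold in SCC25 replicate 2 and for AREG from 66.6-fold to 1.04-fold in the same pairs. In the fit of treatment across the 3 lines, EREG fell by 1.96 ± 0.41 on the log2 scale (edgeR FDR 0.0354) and was the only 1 of 7 ligand genes to pass, beside 3.67% of all genes tested (2.53% upwards and 1.13% downwards). AREG gave −1.85 ± 0.61 (FDR 0.159) and HBEGF −0.76 ± 0.59 (FDR 0.569). Over the 12 fits that left out 1 sample each, the log2 change of EREG lay between −2.20 and −1.61 and its FDR between 0.028 and 0.103, and 7 of these fits lost the call: those without cetuximab replicate 1 of SCC1, either PBS replicate of SCC1, either cetuximab replicate of SCC6, PBS replicate 2 of SCC6 or PBS replicate 1 of SCC25.

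A test of the line-by-treatment interaction asked whether the 3 lines responded differently. No ligand gene passed in edgeR, and 0% of all genes did. The unadjusted p was under 0.05 for 6 of the 7, a count given without the share of all genes at that p. The lowest FDR was 0.353, for BTC and EGF. DESeq2 called 4 of the 7 (AREG, BTC, EGF and HBEGF), beside 1.6% of all genes, and edgeR with the replicate block called EGF (FDR 0.0386, beside 1.29% of all genes). The effect in SCC6 minus that in SCC1 was −3.43 ± 0.95 for AREG, −3.85 ± 1.00 for HBEGF and −2.47 ± 0.50 for BTC on the log2 scale. Only BTC passed with the block (−2.43 ± 0.45, edgeR FDR 0.0435), beside 1.67% of all genes, and no ligand gene did so for SCC25 against SCC1 (0.0224% of all genes) or SCC6 against SCC25 (0.609%). BTC was separated upwards in SCC1 and downwards in SCC6.

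Single cells were compared at an equal depth, by drawing 15000 UMIs from each cell without replacement. The 851 of 23914 cells that had fewer were left out (2.39% to 6.12% of a group). The samples of a group differed in this: cetuximab replicate 1 of SCC6 kept 2592 of 2854 cells and replicate 2 kept 1639 of 1653. A cell with at least 1 UMI of a gene was counted as positive. Genes that squamous carcinoma cells should lack (PTPRC, CD3E, ALB and HBB) gave at most 0.151% positive cells in any sample, and intervals in brackets are exact Clopper-Pearson intervals at 95%, which cover counting error only. AREG was detected in 76.1% (74.5 to 77.7) and 56.0% (54.0 to 57.9) of untreated SCC6 cells and in 6.87% (5.92 to 7.91) and 17.3% (15.5 to 19.2) of cetuximab-treated cells. The unthinned shares were 85.5% and 73.7% in PBS and 9.95% and 35.3% in cetuximab. In SCC1 the AREG-positive share was 70.8% and 66.5% in PBS and 48.5% and 58.1% in cetuximab, and in SCC25 it was 43.6% and 25.5% in PBS and 35.1% and 25.5% in cetuximab. Over the 3 lines the share differed by −24.5 percentage points, cetuximab minus PBS (exact permutation test of labels within lines, two-sided p = 0.037, 7 tests, not adjusted). AREG was lower with cetuximab in 5 of 6 pairs, and a sign-flip test of these pairs gave p = 0.0625 (exact, smallest possible 0.03125).

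EREG was detected in 73.2% (71.5 to 74.9) and 60.2% (58.2 to 62.2) of untreated SCC6 cells and in 7.68% (6.68 to 8.77) and 19.8% (17.9 to 21.8) of cetuximab-treated SCC6 cells. Unthinned, these were 84.5% and 79.2% in PBS and 11.9% and 42.1% in cetuximab. The share was 7.98% and 9.45% in untreated SCC1 against 1.92% and 3.79% with cetuximab, and 4.02% and 2.32% in untreated SCC25 against 2.08% and 1.76%. EREG-positive cells were less frequent with cetuximab in all 6 pairs, with an average difference of −20.04 percentage points (exact permutation test, two-sided p = 0.00926, the smallest that the arrangements of 2 against 2 samples in 3 lines allow, not adjusted). Most of this average came from SCC6. The exact sign-flip test of the pairs gave p = 0.03125, which is also its smallest value.

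HBEGF was detected in 58.3% and 22.003% of untreated and in 6.21% and 14.4% of cetuximab-treated SCC6 cells, in 14.8% and 10.98% against 22.2% and 12.3% in SCC1 and in 22.3% and 19.6% against 26.7% and 13.1% in SCC25. The average difference for HBEGF, cetuximab minus PBS, was −8.84 percentage points, with a lower share in 3 of 6 pairs (exact permutation p = 0.324). TGFA was detected in 3.395% to 22.1% of cells, and the mean difference was −1.16 percentage points (exact permutation p = 0.704). BTC was detected in 1.04% to 12.9% of cells, with a difference of 1.82 points (exact permutation p = 0.204). EPGN and EGF were detected in at most 0.746% and 0.999% of cells. In untreated SCC6 the EGF share was 0.0377% and 0.0411%, from 1 cell in each sample. PTPRC, CD3E, ALB and HBB were found in 0 cells of these 2 samples, and the highest background share came from a treated SCC25 sample. In 1 untreated SCC1 sample EGF was found in 0 of 1640 cells, which allows up to 0.183% of cells with an EGF UMI at this depth (3 counts of the total, the limit taken for a count of 0). In untreated SCC25 the EGF share was 0.914% and 0.999%. EPGN was found in at most 12 cells of a sample, too few to compare groups at this depth.

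**Figure D3:**
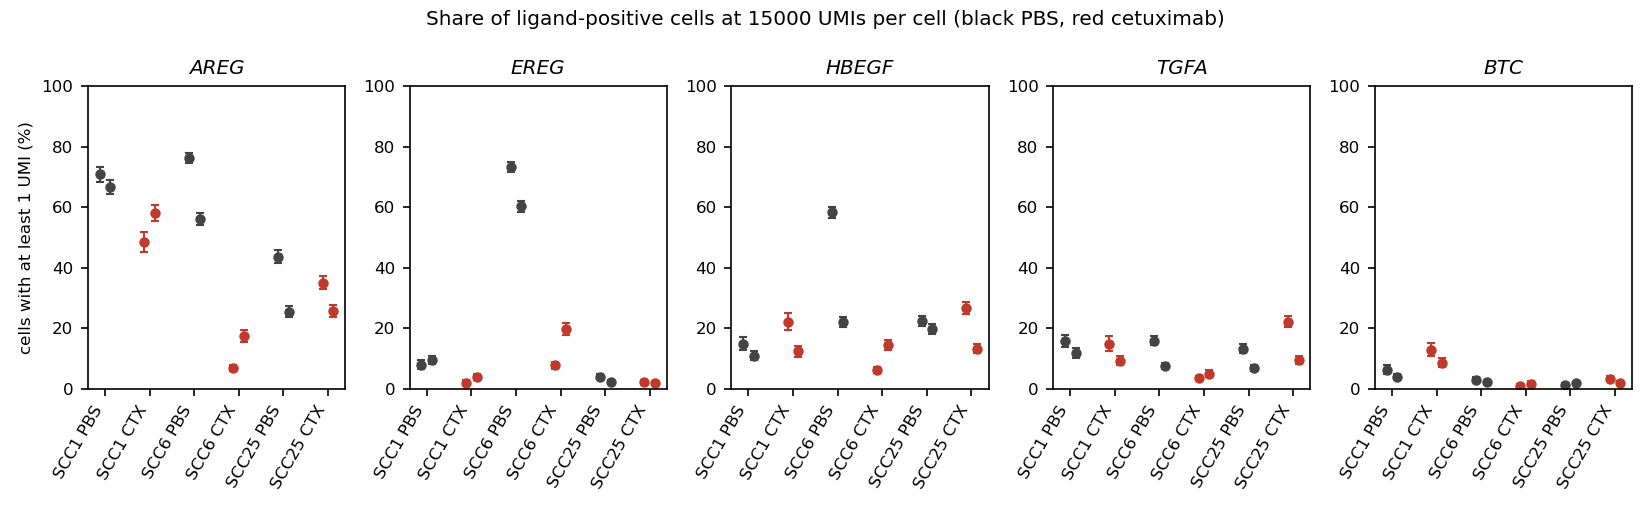
Share of cells (in %) with at least 1 UMI of a ligand gene at 15000 UMIs per cell, by sample, with exact 95% intervals for counting error. In SCC6 the AREG share went from 76.1% and 56.0% (PBS) to 6.87% and 17.3% (cetuximab), and the EREG share from 73.2% and 60.2% to 7.68% and 19.8%.

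AREG-positive cells of SCC6 also held fewer AREG transcripts each in the cetuximab samples. AREG-positive SCC6 cells had on average 9.56 and 2.91 AREG UMIs in the PBS replicates and 1.5 and 2.02 in the cetuximab replicates. At least 10 AREG UMIs were found in 21.6% and 2.09% of untreated SCC6 cells and in 0% and 0.183% of treated cells. In SCC1 this class made up 12.2% and 8.48% of untreated and 2.13% and 4.08% of treated cells. In all 3 untreated lines the AREG UMIs were unevenly spread over the cells. In untreated SCC6 the 10% of cells with most AREG held 53.4% and 48.3% of all AREG UMIs. The values were 50.4% and 52.7% in untreated SCC1, 48.6% and 59.2% in untreated SCC25 and 53.2% to 100% in the treated samples. The corresponding values of EREG were 34.9% and 38.6% in untreated SCC6 and 100% in untreated SCC1 and SCC25. There fewer than 10% of cells were EREG-positive, so that the measure also follows how sparse a gene is. Single cells reached 141 AREG UMIs out of 15000 in untreated SCC1 and SCC6, and 66 in cetuximab replicate 2 of SCC6, where the median cell had 0.

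**Figure D4:**
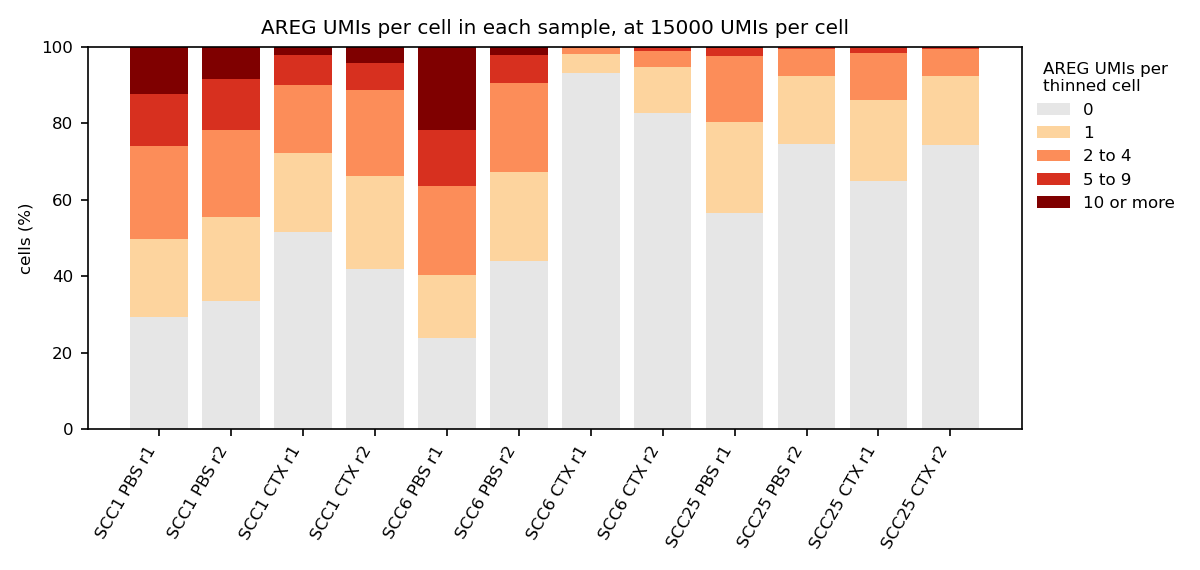
Share of cells (in %) by the number of AREG UMIs at 15000 UMIs per cell, in each of the 12 samples (r1 and r2 are replicates 1 and 2). The class of 10 or more UMIs made up 21.6% of cells in PBS replicate 1 of SCC6 and 0% and 0.183% in the cetuximab samples of SCC6.

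Several ligand genes were often detected in the same untreated SCC6 cell. At least 2 of the 7 genes were detected in 75.5% and 49.7% of untreated SCC6 cells and in 3.67% and 12.02% of treated cells. In SCC1 these shares were 29.0% and 23.7% in PBS against 27.5% and 22.1% in cetuximab, and in SCC25 19.8% and 10.1% against 22.4% and 8.13%. Cells without any ligand UMI made up 7.47% and 17.4% of untreated and 78.9% and 56.4% of treated SCC6 cells. Such shares rise and fall with the share of cells positive for each single gene. No share expected for independent genes was set beside them, so they do not show joint expression. Within PBS replicate 1 of SCC6 the Pearson correlation across 2652 cells of log2(UMIs + 1) was 0.54 for AREG and EREG, 0.46 for AREG and HBEGF and 0.43 for EREG and HBEGF. In PBS replicate 2, over 2436 cells, the values were 0.25, 0.18 and 0.12. In the other 10 samples AREG and EREG gave values between 0.01 and 0.33. These cells share a library and have the same depth, the counts are sparse, and the correlations are given as a description.

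Over the 12 samples, after the mean of each line had been taken out, AREG and EREG levels were correlated with r = 0.96, AREG and HBEGF with r = 0.84, AREG and TGFA with r = 0.77 and AREG and BTC with r = 0.23 (Pearson, on the log scale, a description, in which the 4 SCC6 samples spanned the widest range of AREG). Among 7580 genes with at least 10 CPM on average, the 3 most like AREG were PHLDA1 (r = 0.99), PPCDC (r = 0.97) and VDAC1 (r = 0.97). PHLDA1, an ERK-responsive gene, had 637 and 151 CPM in the PBS and 26.1 and 40.9 CPM in the cetuximab replicates of SCC6. EREG was most like MRPS2 (r = 0.98), CCDC59 (r = 0.98) and MRPS10 (r = 0.98), and HBEGF most like MAFF, which encodes a small MAF transcription factor (r = 0.96), STAM (r = 0.96) and CYSTM1 (r = 0.95).

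The other genes of the pathway were read from a list of 59 genes in 6 roles, of which 58 passed the filter. In SCC6, 5 of them passed the edgeR test, all downwards, where 3.81% of all genes passed and 1.3% downwards. With the replicate block 18 passed, where 20.1% of all genes did. The 6 upwards were ADAM12, CBLB, ERBB2, GAB1, SOCS3 and SOS1, and the 12 downwards held, beside genes named in the following, ADAM15, ETV4, ETV5, PLAUR and VEGFA. The most abundant genes of a role were taken by mean CPM over the 12 samples. No ERBB receptor passed without the block. EGFR itself had 86.3 and 76.4 CPM in PBS and 86.4 and 88.6 CPM in cetuximab in SCC6, and ERBB2 15.6 and 17.1 CPM against 24.9 and 26.5 CPM, which passed with the block (0.42 ± 0.12 on the log2 scale, edgeR FDR 0.0418). NRG1, the ERBB3 and ERBB4 ligand neuregulin 1, had 9.41 and 3.98 CPM in PBS and 2.24 and 4.49 CPM in cetuximab. Of the genes for shedding and trafficking, NKD2, which escorts TGFA to the cell surface, fell (−2.04 ± 0.34, FDR 0.0144) from 0.96 and 0.69 CPM to 0.24 and 0.23 CPM. The most abundant genes of that role, TIMP3, an inhibitor of these proteases, and ADAM10, had 177 and 122 CPM (TIMP3) and 51.8 and 37.1 CPM (ADAM10) in PBS against 123 and 136 CPM and 72.3 and 57.5 CPM in cetuximab, and neither passed in either fit. HRAS (log2 fold change −0.06 ± 0.23) and MAP2K2 (−0.29 ± 0.20), the most abundant genes of the cascade, did not pass either, nor did NRG4 (0.65 ± 0.36).

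Of the 13 feedback inhibitors, DUSP4, an ERK phosphatase, fell in SCC6 (log2 fold change −2.42 ± 0.46, edgeR FDR 0.0259) from 101 and 41.1 CPM to 10.7 and 20.8 CPM. The most abundant of them, ERRFI1, which binds and inhibits EGFR, had 103 and 36.8 CPM in PBS and 26.8 and 27.6 CPM in cetuximab and passed only with the block (−1.41 ± 0.34, FDR 0.0299), as did DUSP5, another ERK phosphatase (−2.27 ± 0.51, FDR 0.0281). With the block, CBLB (0.56 ± 0.14, FDR 0.0246), a ubiquitin ligase, and SOCS3 (0.49 ± 0.14, FDR 0.0438) rose. Among the 14 ERK output genes, PHLDA1 (−3.81 ± 0.54, FDR 0.0113), FOSL1, which encodes a subunit of AP-1 (−2.97 ± 0.65, FDR 0.0456), and MYC (−1.83 ± 0.40, FDR 0.0407) fell. The ERK output genes with the highest mean over the 12 samples, CCND1, which encodes cyclin D1, and IER3, did not pass in SCC6 in either fit, with log2 fold changes of −0.04 ± 0.17 and 0.25 ± 0.23. The median log2 change in SCC6 was −1.65 over the 7 ligand genes, −0.84 over the ERK output genes, −0.18 over the feedback inhibitors, −0.16 over the 14 adaptors and RAS-RAF-ERK genes and 0.00 over all genes tested. PBS replicate 1 was higher than PBS replicate 2 in FOSL1, MYC, PHLDA1 and DUSP4 too, and without it none of the 58 genes passed in SCC6, nor did any without cetuximab replicate 1. In SCC1 and SCC25 no gene of the list passed the edgeR test, and DESeq2 called none. With the block, DUSP6 fell in SCC1 (−0.85 ± 0.18, FDR 0.0402). Across the 3 lines ADAM9, a protease of the ADAM family, rose (0.45 ± 0.11, FDR 0.0411) and was the only listed gene to pass. These counts, 1 of 58 and 6 of 58 with the block, were not above the 3.67% and 11.6% of all genes that passed.

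**Figure D5:**
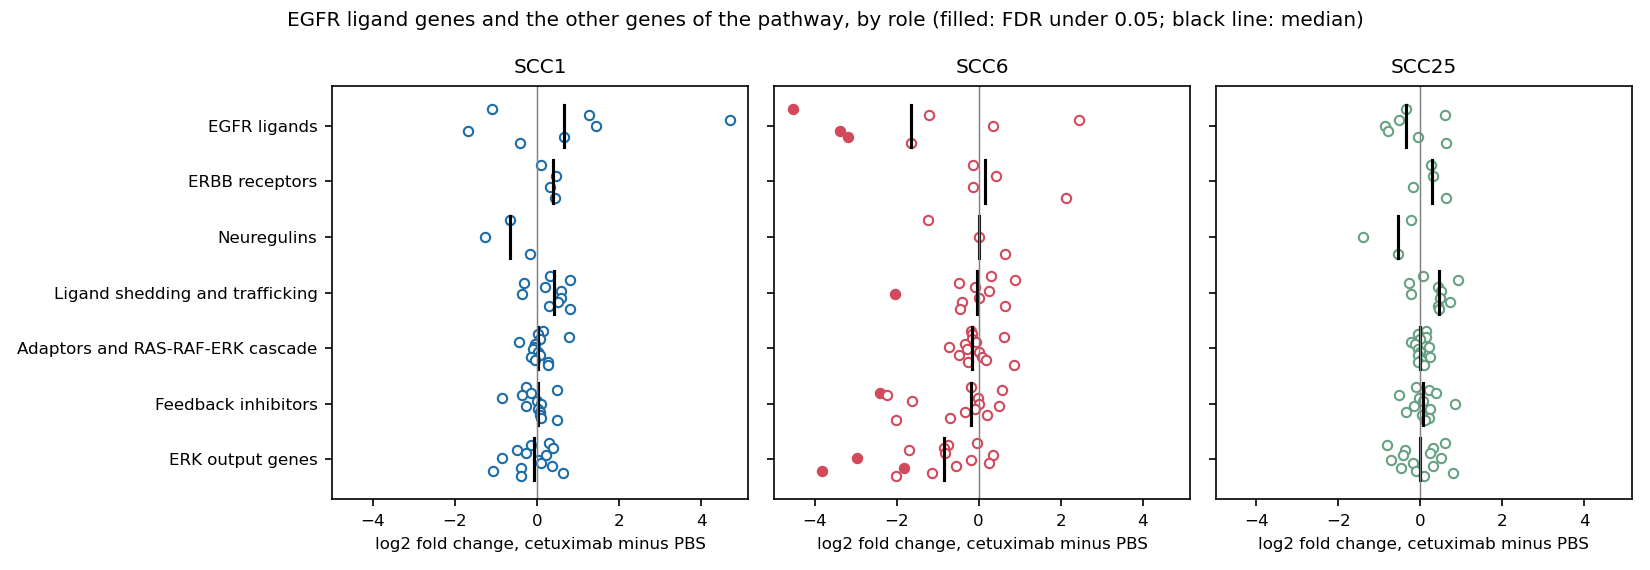
Log2 fold change (cetuximab minus PBS) of the 7 ligand genes and of 58 other genes of the EGFR pathway, grouped by role, in each line, with filled points for genes past a false discovery rate of 0.05 and black lines at the median of each role. In SCC6 the median was −1.65 for the ligands and −0.84 for the ERK output genes.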

How the data were processed

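Cells of 3 lines had been profiled with Chromium 3′ v2 chemistry in 12 samples. The submitters' processing notes name Cell Ranger and GRCh38 (no version of the tool is given in the sources used here), and the deposited matrices hold whole-number counts per gene and cell. Counts of rows with 1 symbol were added (33538 rows, 33514 symbols), and all 23914 barcodes in the files were kept, with no doublet caller. Samples were grouped by the labels. UMIs were summed per sample and tested with edgeR 4.0.16 (quasi-likelihood, TMM, filterByExpr, no block) over 12 samples, with DESeq2 1.42.0, other scalings, no filter, replicate blocks, other cell filters and each sample left out as alternatives. Shares of cells were compared with an exact permutation test within lines. Samples with the same replicate number deviated together from their group means (r = 0.68 in SCC1, 0.63 in SCC6 and 0.72 in SCC25, over 7583 genes). The numbers were therefore treated as pairing the samples in the block fits and sign-flip tests, although the labels do not say that they do. The reported fit and the permutation test did not use this pairing. Total UMIs were 57057402 to 112170073 per sample. Counting intervals and floors (3 counts) cover counting error only. Named genes were the 7 ligands, pathway genes past the threshold, the most abundant genes of a role, and the 3 genes most like a ligand. The members and lists were chosen with earlier results of these data known.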

Additional observations from a re-analysis of the deposited data

How the results depend on the processing

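In SCC6, 3 ligand genes passed in the reported fit, against 5 with DESeq2, 5 with the replicate block within each line, 6 with a replicate block shared by the lines, 1 with only the 4 samples of the line and 0 to 3 when 1 sample was left out. The pathway list gave 5 there, against 11, 18, 11, 1 and 0 to 7, and 10 with no filter on low counts. For the interaction, 0 became 4 with DESeq2, 5 with no filter and 1 with the block. In SCC1, 0 ligand genes became 2 with no filter and 1 with either block, and 0 pathway genes became 1 with the block within lines. Across lines, 1 became 2 with no filter and 0 to 1 with a sample left out. Untreated lines gave 1 to 2 calls (SCC6 and SCC1), 1 to 4 (SCC25 and SCC1) and 2 to 6 (SCC25 and SCC6) with a sample left out. The cause of these changes was not tested. Besides these and the calls given beside the results, the block changed no other call of a ligand gene. For AREG-positive cells the mean difference of −24.5 percentage points had p = 0.0625 under the pairing (exact sign-flip test), and lay between −27.9 and −21.1 (exact permutation p 0.0185 to 0.0833) with a sample left out, against −22.2 to −17.9 for EREG, −14.9 to −2.80 for HBEGF, 1.10 to 2.53 for BTC, −3.28 to 0.959 for TGFA, −0.0271 to 0.123 for EPGN and −0.0288 to 0.201 for EGF. The log2 changes that turned sign with a sample left out, none of which had passed, were EPGN in SCC6 (−0.80 to 0.95) and across lines (−0.057 to 0.66), AREG (−0.74 to 0.19), TGFA (−0.17 to 1.12) and HBEGF (−0.65 to 0.35) in SCC25, and, between untreated lines, AREG (−0.86 to 1.41), TGFA (−0.83 to 0.28) and EPGN (−1.46 to 0.68) for SCC6 minus SCC1 and TGFA (−0.79 to 0.32) for SCC25 minus SCC6. With every sample kept, 454 recomputed log2 changes of ligand genes kept direction and call, 31 passed newly, 3 no longer passed and 0 turned. Depth limits EPGN and EGF, with 183 and 242 UMIs in all.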
